A study of Mus musculus with 12 samples.

Results

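The SR proteins and the hnRNPs of mouse colon were followed through their transcripts, transcript by transcript, in colon RNA of 3 treatment groups. The genes were all those with a symbol that begins with Srsf or Hnrnp, plus Tra2a and Tra2b. Of 35 such genes in the GENCODE vM21 annotation of the GRCm38 build, 33 had listed transcripts, among 22377 listed genes in all. Hnrnpa0 and the pseudogene Hnrnpa1l2-ps2 were not analysed here. The 33 genes had 253 listed transcripts of 298 annotated: 125 protein coding, 61 with a retained intron, 38 annotated as targets of nonsense-mediated decay, 28 processed transcripts without a reading frame and 1 processed pseudogene. They held 0.578% to 0.728% of the summed FPKM of a library (FPKM is fragments scaled for transcript length and library total).

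Colon RNA was sequenced from 12 samples, 4 labelled control, 4 labelled DSS and 4 labelled FGF1. The DSS label comes from the sample descriptions, and the titles of these 4 samples carry a number code instead. DSS is dextran sulfate sodium, a polymer that injures the colon lining when mice drink it, and FGF1 is fibroblast growth factor 1. The study asked, per its design text, what losing Fgf1 in the gut epithelium or supplying the recombinant protein does in mice with bowel inflammation. The labels name no allele, strain, age, sex, dose or duration for these 12 samples, and do not state if DSS was given with FGF1. Nor do they tie the 12 samples to different animals, and p-values then measure only the spread between these samples, which may be technical.

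SR proteins carry RNA recognition motifs and a tail rich in arginine and serine, bind exonic sequences and help the spliceosome to choose nearby splice sites. Tra2a and Tra2b are their relatives with a tail on either side of the RNA-binding part. The hnRNPs coat new transcripts, and many of them, such as Hnrnpa1, favour the skipping of exons they bind. Genes of both families control their own amount through splicing: they include a "poison" exon or keep an intron that brings an early stop codon, and the resulting RNA is destroyed by nonsense-mediated decay or held in the nucleus. A change in such a gene can therefore lie in its total RNA, in the choice among its transcripts, or in both.

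In 13 transcripts of 9 genes annotated as decay targets, the stop codon lay in an exon, neither first nor last, that overlapped no exon of a coding transcript. In Srsf6-201 it lay in an exon that the main coding transcript Srsf6-203 skips, but the first 165 bases of that exon, which include the 152 bases shown, are also an exon of the coding Srsf6-202. Srsf6-202 held 0.52% of the gene or less in every library. The 7 exons shown here are those whose inclusion is compared in detail. Each line holds the exon from its first base to the stop codon that ends the reading frame, 5′ to 3′ on the strand of the gene, with that stop codon in capitals. The sequences were taken from the GENCODE vM21 transcripts. The Srsf3 exon lies at chr17:29039454-29039909 on the plus strand, is exon 4 of Srsf3-201 and is 456 bases long. The Srsf7 exon lies at chr17:80204622-80205081 on the minus strand, is exon 4 of Srsf7-203 and is 460 bases long. The Srsf6 exon lies at chr2:162932815-162933082 on the plus strand, is exon 3 of Srsf6-201 and is 268 bases long. The Tra2a exon lies at chr6:49252803-49253108 on the minus strand, is exon 2 of Tra2a-202 and is 306 bases long. The Tra2b exon lies at chr16:22258986-22259261 on the minus strand, is exon 2 of Tra2b-206 and is 276 bases long. The Hnrnpl exon lies at chr7:28817335-28817404 on the plus strand, is exon 6 of Hnrnpl-213 and is 70 bases long. The Hnrnpll exon lies at chr17:80044940-80045022 on the minus strand, is exon 7 of Hnrnpll-203 and is 83 bases long.
Srsf3-201: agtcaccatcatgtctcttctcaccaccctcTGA
Srsf7-203: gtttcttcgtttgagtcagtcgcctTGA
Srsf6-201: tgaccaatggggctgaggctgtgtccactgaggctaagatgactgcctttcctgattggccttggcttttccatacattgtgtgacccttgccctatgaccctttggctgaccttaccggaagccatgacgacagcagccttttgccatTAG
Tra2a-202: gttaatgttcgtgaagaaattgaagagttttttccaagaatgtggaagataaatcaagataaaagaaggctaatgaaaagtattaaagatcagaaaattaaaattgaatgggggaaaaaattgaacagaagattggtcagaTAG
Tra2b-206: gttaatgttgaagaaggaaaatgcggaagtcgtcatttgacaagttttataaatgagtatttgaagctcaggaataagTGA
Hnrnpl-213: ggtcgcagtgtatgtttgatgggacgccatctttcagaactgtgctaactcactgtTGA
Hnrnpll-203: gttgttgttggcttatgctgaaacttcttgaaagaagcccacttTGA
In these 7 exons the stop codon ended 28 to 152 bases into the exon, and between 534 and 1015 bases of the transcript lay from that stop to the last exon junction. The stop came soonest in Srsf7 and Srsf3, after 28 and 34 bases. The exons of the relatives Tra2a and Tra2b began with the same 9 bases, gttaatgtt.

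Another 3 exons change the protein without ending it, and are shown because comparisons of Hnrnpa2b1 and Hnrnpk turn on them; they were chosen after values were seen. Each is wholly coding with a length divisible by 3, so that it adds codons and keeps the frame, and nothing is in capitals. The first adds 40 codons to the glycine-rich part of Hnrnpa2b1 (chr6:51464428-51464547, minus strand, exon 8 of Hnrnpa2b1-202). The second adds 12 codons near the start of Hnrnpa2b1 and makes the B1 form out of the A2 form (chr6:51467391-51467426, minus strand, exon 2 of Hnrnpa2b1-203). The last adds 24 codons to Hnrnpk (chr13:58396188-58396259, minus strand, exon 9 of Hnrnpk-202).
Hnrnpa2b1 120-base exon: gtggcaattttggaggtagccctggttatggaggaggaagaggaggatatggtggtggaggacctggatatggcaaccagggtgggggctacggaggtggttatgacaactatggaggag
Hnrnpa2b1 36-base exon: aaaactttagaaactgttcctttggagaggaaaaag
Hnrnpk 72-base exon: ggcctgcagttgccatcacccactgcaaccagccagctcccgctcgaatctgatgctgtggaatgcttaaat

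The libraries differed in more than the treatment, and these values stand before the results that they touch. All 10 epithelial markers were above 1 FPKM in every library, with summed levels of 9661.8 to 11859.7 FPKM in control, 8862.7 to 9663.2 in DSS and 9741.3 to 11938.8 in FGF1. The 10 smooth muscle markers summed to 2620.7 to 8173.1 FPKM in control, 606.2 to 2030.8 in DSS and 1184.1 to 7321.8 in FGF1, with control 3 (8173.1) and FGF1 3 (7321.8) at the top. The 8 fibroblast markers summed to 252.6 to 366.9 FPKM in control, 14.5 to 91.9 in DSS and 76.1 to 220.1 in FGF1, and the 7 leukocyte markers to 110.7 to 215.0, 32.8 to 78.4 and 44.7 to 152.6. The 4 plasma cell markers summed to 812.5 to 2364.2 FPKM in control, 35.5 to 109.0 in DSS and 124.9 to 497.9 in FGF1. The 6 endothelial markers summed to 37.7 to 51.7, 3.7 to 22.4 and 14.5 to 28.6 FPKM in these groups. Those of enteric neuron and glia (6) summed to 30.0 to 76.3, 6.9 to 33.4 and 16.1 to 33.2 FPKM. No marker of any list was at 0 in every library. Of these lists, only smooth muscle was used in a model below. DSS 3 and DSS 4 stood apart with 45795 and 47597 transcripts above 0, against 50174 to 54313 in the other libraries. In bulk tissue, fewer cells of a type and less RNA per cell cannot be told apart.

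The first question was whether DSS, or FGF1, changed how much RNA these genes make. A gene's level was the sum of FPKM over its transcripts, and differences were fitted with limma on log2(FPKM + 1), with p-values adjusted over all 12578 genes tested, so that folds of low genes are understated. Of the 33 genes, 31 passed the filter on low values, and Srsf12 (0.324 ± 0.179 FPKM in control, SD, n = 4) and the pseudogene Hnrnpa1l2-ps (0.172 ± 0.079) did not. Between DSS and control, 1 of 31 was called at an adjusted p under 0.05, Srsf5, which rose, against a background of 12.3% of all genes. Between FGF1 and DSS no member was called (background 0.0557%), nor between FGF1 and control (0.0795%). At an unadjusted p under 0.05 (limma) there were 6, 3 and 3 members in the 3 comparisons. Here and below, such counts stand without the share over all features and are not read as results. These comparisons share libraries with each other, so their values stand side by side and are no separate evidence.

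Member differences were small in both directions. Their median was 0.00 on the log2 scale for DSS against control, 0.04 for FGF1 against DSS and -0.01 for FGF1 against control, beside -0.07, 0.05 and -0.04 over all genes tested. In DSS 16 members lay above and 15 below the controls. All but 2 of 31 differed by less than 0.5 (log2) between DSS and control, all 31 between FGF1 and DSS and 30 between FGF1 and control, beside 79.2%, 89.1% and 87.1% of all genes. The median SE of these differences was 0.12, and 0.17 over all genes. Of all genes called between DSS and control, 280 were higher and 1269 lower. Under median-of-ratios scaling the split was 677 and 982, and the all-gene median moved from -0.0705 to 0.0537.

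**Figure D1:**
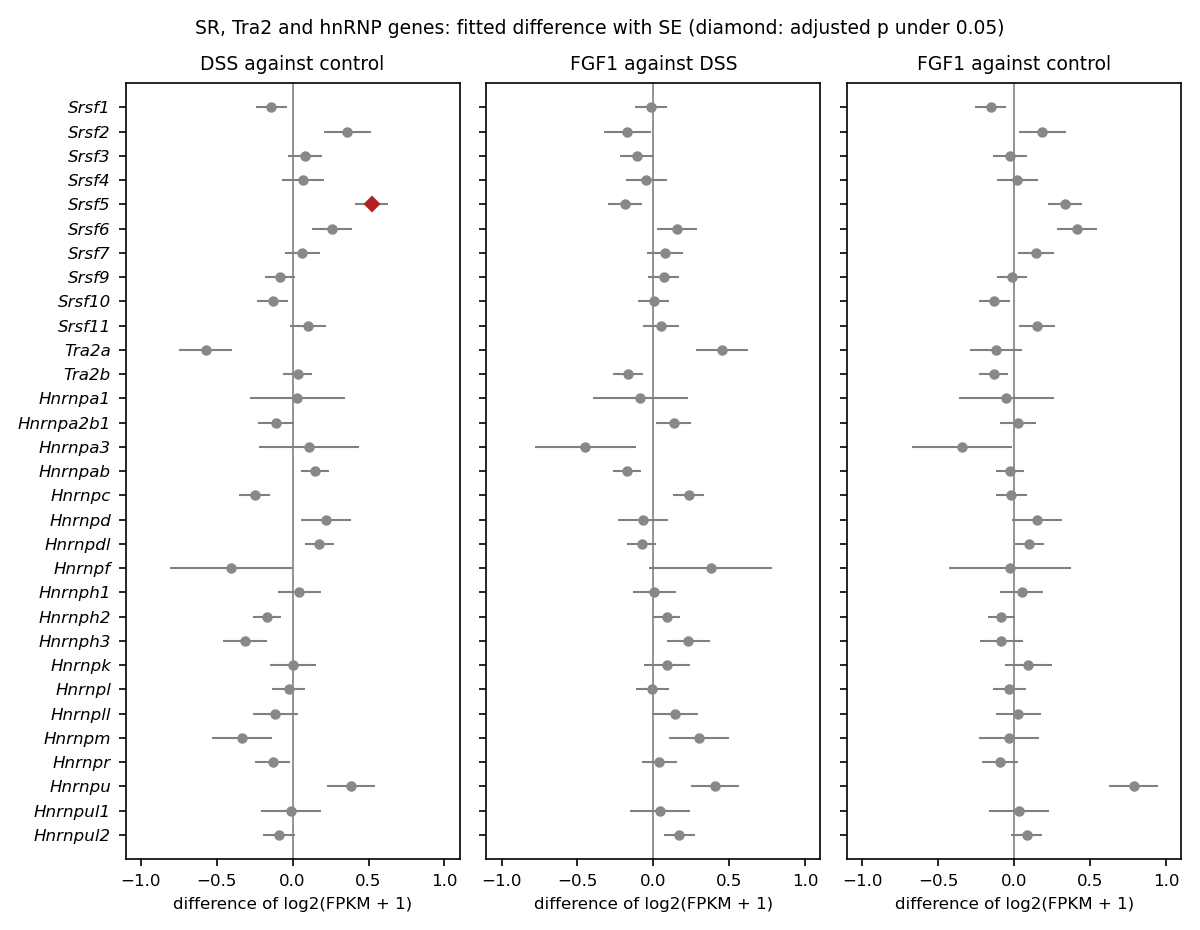
Log2 difference of gene FPKM (log2 of FPKM + 1, limma) for the 31 tested genes in the 3 comparisons, with bars of 1 SE and 1 point per gene. Between DSS and control the points run from -0.57 for Tra2a to 0.52 for Srsf5, the gene called there, and between FGF1 and control Hnrnpu lies farthest out at 0.79.

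Srsf5, an SR protein that promotes exon inclusion, was the third most abundant member. Its level was 125, 125, 149 and 136 FPKM in control, 228, 161, 188 and 197 in DSS and 171, 168, 160.3 and 175 in FGF1 (libraries 1 to 4 of each group in order, as in all such series of values). Every DSS library and every FGF1 library lay above every control, and DSS 1 was the highest of all. The mean was 134 ± 11.5 FPKM in control, 194 ± 27.4 in DSS and 169 ± 6.35 in FGF1 (mean ± SD, n = 4). The difference was 0.52 ± 0.11 (adjusted p = 0.0125) for DSS against control, 0.33 ± 0.11 (adjusted p = 0.212) for FGF1 against control and -0.19 ± 0.11 (adjusted p = 0.525) for FGF1 against DSS (limma).

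Smooth muscle markers summed lower in every DSS library (606.2 to 2030.8 FPKM) than in any control (2620.7 to 8173.1). A muscle score, the mean log2(FPKM + 1) of the 10 smooth muscle markers, was then added to the model. The difference of Srsf5 was 0.54, as large as without the score, and its adjusted p was 0.129, with 34 calls over all genes. Without DSS 3 and DSS 4 it was 0.52 with an adjusted p of 0.105, and 185 genes were called in all. Protein-coding Srsf5 transcripts stood at 51.3, 71.5, 46.2 and 45.7 FPKM in control, 83.5, 63.4, 69.2 and 56.6 in DSS and 52.2, 62.1, 64 and 57.6 in FGF1, where the groups overlap. The mean summed FPKM of its noncoding transcripts was 80.3 in control, 125 in DSS and 109.8 in FGF1.

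Tra2a, which activates splicing through purine-rich exonic enhancers, had the largest negative difference of the members in DSS and narrowly missed the threshold. Its level was 44.3, 46.6, 31.7 and 41 FPKM in control, 25.8, 34.3, 27.6 and 21.3 in DSS and 31, 32, 43.8 and 43.9 in FGF1. Only DSS 2 lay above the lowest control, control 3, and FGF1 libraries lay between 31.0 and 43.9 FPKM. The difference was -0.57 ± 0.17 (adjusted p = 0.0501) for DSS against control and 0.45 ± 0.17 (adjusted p = 0.312) for FGF1 against DSS. Leaving out control 3, the library richest in muscle markers, gave -0.69 with an adjusted p of 0.0391, and leaving out DSS 2 gave 0.0284. With a gene's level taken from its transcription start events alone, the difference was 0.01 with an adjusted p of 0.985. These events held only part of Tra2a FPKM, 17, 20.3, 52.8 and 38.1% in control and 43, 35.4, 50.5 and 48.6% in DSS.

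Tra2b, its paralogue with the same RNA targets, stood at 31.5, 30.9, 35.3 and 30.7 FPKM in control, 36.7, 29.2, 34.7 and 31.2 in DSS and 28.1, 29.1, 27.2 and 32.2 in FGF1. All 3 groups overlapped, and the difference of DSS from control was 0.03 ± 0.10 (adjusted p = 0.87).

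Srsf2, an SR protein that works in the nucleus and binds both purine-rich and pyrimidine-rich exonic motifs, stood at 122, 81.3, 126 and 106 FPKM in control, 130.3, 117, 138 and 172 in DSS and 124, 112, 117 and 138 in FGF1. DSS 4 was highest and control 2 lowest, with overlap of all groups. The difference was 0.36 ± 0.15 (adjusted p = 0.151) for DSS against control. Srsf6, the SR protein once known as SRp55, stood at 49.4, 46.1, 72.5 and 61.2 FPKM in control, 72.6, 69.2, 63.1 and 66.6 in DSS and 70.8, 81.5, 81.7 and 69.3 in FGF1. Control 3 lay inside the range of the treated libraries, and the other 3 controls lay below all of them. The difference was 0.26 ± 0.13 (adjusted p = 0.231) for DSS against control and 0.42 ± 0.13 (adjusted p = 0.201) for FGF1 against control.

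The founding SR protein Srsf1, which opposes Hnrnpa1 at many splice sites, stood at 19.9, 19.7, 21.6 and 22.9 FPKM in control, 19.5, 20.3, 20.3 and 15.9 in DSS and 17.4, 20.6, 17.5 and 19.6 in FGF1. The groups overlapped, with a difference of -0.16 ± 0.10 (adjusted p = 0.547) for FGF1 against control. Srsf3, the smallest SR protein, which also takes part in RNA export, stood at 69.2, 63.4, 82.7 and 79.7 FPKM in control, 83, 68.3, 81.5 and 78.6 in DSS and 80.9, 67.9, 76 and 64.7 in FGF1. Srsf7, its close relative with a zinc knuckle, stood at 53.8, 51.7, 74.6 and 56.8 FPKM in control, 64, 59.6, 68.2 and 54.5 in DSS and 62.2, 68.4, 65.4 and 63.6 in FGF1. Neither Srsf3 nor Srsf7 separated any pair of groups, and their DSS differences were 0.08 ± 0.11 (adjusted p = 0.699) and 0.07 ± 0.12 (adjusted p = 0.775).

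Srsf4, with a long arginine-serine tail, stood at 22.5, 20.9, 32.2 and 25.7 FPKM in control, 30.8, 28.6, 22.7 and 23.7 in DSS and 25.6, 25.8, 25.6 and 24.5 in FGF1. Srsf10, an SR protein that represses splicing once heat shock strips its phosphates, stood at 19.5, 19.9, 23.1 and 19.7 FPKM in control, 21.1, 17, 16.3 and 20.5 in DSS and 18.5, 18.7, 18.5 and 18.9 in FGF1. Srsf11, an SR protein of the nuclear speckles, stood at 42.9, 41.9, 51.4 and 43.8 FPKM in control, 50.4, 54.8, 41.8 and 46.5 in DSS and 44.7, 60.6, 47.7 and 48 in FGF1. Of these 3 genes only Srsf10 separated a pair of groups, with all FGF1 libraries between 18.5 and 18.9 FPKM, under all controls, and a difference of -0.13 ± 0.10 (adjusted p = 0.611).

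Srsf9, a close relative of Srsf1, was almost wholly its coding transcript Srsf9-201, with 97.4% or more in every library, and averaged 33.7 ± 2.47 FPKM in control, 31.8 ± 3.26 in DSS and 33.3 ± 2.76 in FGF1 (mean ± SD, n = 4).

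**Figure D2:**
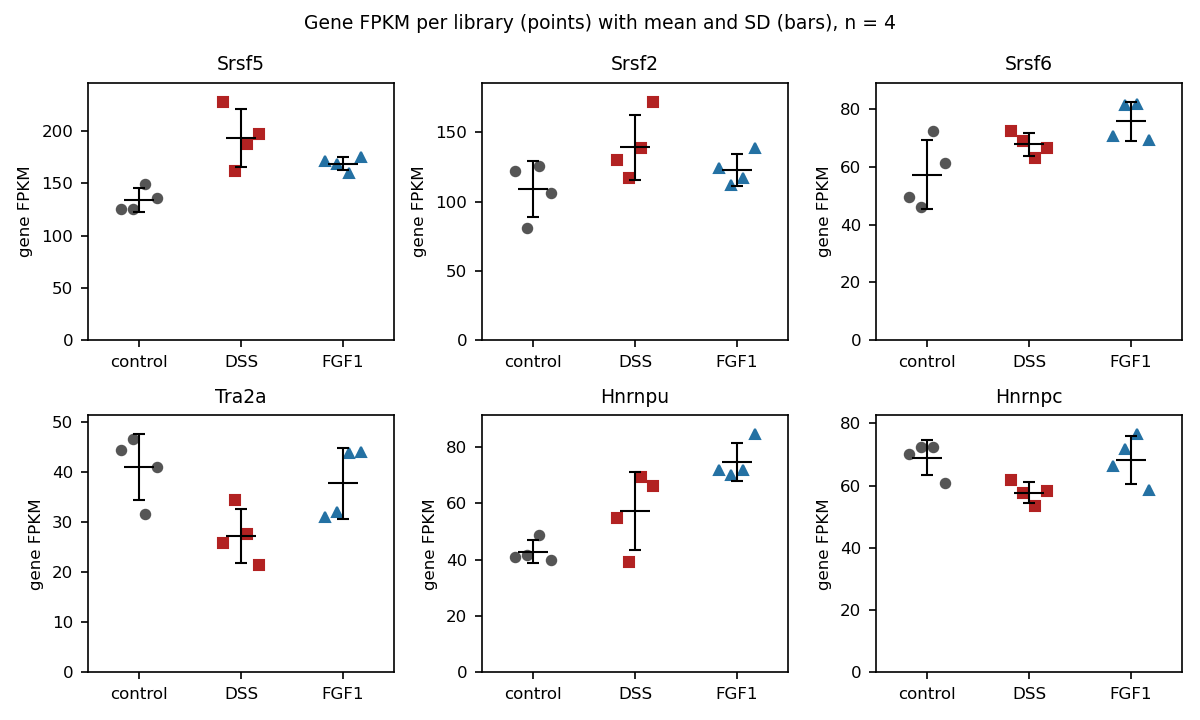
FPKM per library (y axis, from 0) of Srsf5, Srsf2, Srsf6, Tra2a, Hnrnpu and Hnrnpc in control, DSS and FGF1, with 1 point per library, a line at each group mean and bars of 1 SD. Srsf5 points of DSS and FGF1 lie above all 4 controls, whereas Srsf2, Srsf6 and Tra2a groups overlap.

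Among the hnRNPs, Hnrnpa2b1 was the most abundant member, with a mean of 419.9 FPKM over the 12 libraries. It binds exons and 3′ ends of messages and sorts RNA into vesicles. Its level was 414, 414, 479 and 402 FPKM in control, 469, 392, 401 and 332 in DSS and 423, 461, 442 and 410.1 in FGF1. Control 3 was the highest library and DSS 4 the lowest, the groups overlapped, and the DSS difference was -0.11 ± 0.12 (adjusted p = 0.605).

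Hnrnpab, an A/B-type protein, was second at a mean of 218 FPKM and stood at 219, 192, 237 and 199 FPKM in control, 251, 233, 229 and 224 in DSS and 214, 201, 209 and 205 in FGF1. All FGF1 libraries lay under all DSS libraries. The difference between these groups was -0.18 ± 0.09 (adjusted p = 0.474). In DSS against control it was 0.15 ± 0.09 (adjusted p = 0.335).

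Hnrnpf, which binds runs of G, and Hnrnpa1, the classical splicing silencer, varied more within groups than between them. Hnrnpf stood at 158, 111, 149 and 171 FPKM in control, 129, 147, 38.1 and 199 in DSS and 172, 148, 99.3 and 165 in FGF1, with DSS 3 far under the rest. Hnrnpa1 stood at 111, 93.2, 132 and 103 FPKM in control, 233, 74.7, 130.4 and 67.5 in DSS and 94.7, 120.0, 92.6 and 115 in FGF1, and DSS libraries held both its highest and its lowest value. The DSS differences were -0.40 ± 0.40 (adjusted p = 0.568) and 0.03 ± 0.31 (adjusted p = 0.963).

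Hnrnpu, the scaffold attachment protein that ties RNA to chromatin, showed the largest difference of any member in any comparison, in FGF1 against control. Its level was 41, 41.5, 48.8 and 39.8 FPKM in control, 54.7, 39, 69.3 and 66 in DSS and 71.8, 69.9, 71.9 and 84.4 in FGF1. All FGF1 libraries lay above all control and all DSS libraries, and DSS spanned from under the lowest control to just under FGF1. The difference was 0.79 ± 0.16 (adjusted p = 0.0887) for FGF1 against control, 0.40 ± 0.16 (adjusted p = 0.321) for FGF1 against DSS and 0.38 ± 0.16 (adjusted p = 0.138) for DSS against control. The first passed the threshold when only control and FGF1 libraries were fitted (adjusted p = 0.0346), without DSS 3 and DSS 4 (0.0366) and without DSS 2 (0.0332). Without DSS 2, the difference of DSS from control was 0.55 with an adjusted p of 0.0149, and without DSS 3 and DSS 4 it was 0.11 with an adjusted p of 0.739.

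Hnrnpc, which binds runs of U and keeps cryptic exons out of messages, stood at 70.3, 72.4, 72.5 and 60.8 FPKM in control, 62, 57.5, 53.6 and 58.2 in DSS and 66.3, 72, 76.5 and 58.6 in FGF1. Most DSS libraries lay under the controls, with control 4 inside the DSS range. The difference was -0.25 ± 0.10 (adjusted p = 0.131) for DSS against control and 0.23 ± 0.10 (adjusted p = 0.376) for FGF1 against DSS. The former was -1.55 (adjusted p = 0.709) from start events alone, -0.11 (adjusted p = 0.489) under median-of-ratios scaling and -0.15 (adjusted p = 0.666) with the muscle score in the model. Start events held 0.3% of Hnrnpc FPKM in control 2 and DSS 1 and 0.5% in DSS 3. They held 97.6% or more in the other controls and DSS libraries, so -1.55 does not compare the whole gene. Hnrnph2 lay under all controls in all DSS libraries, at 31.6 ± 2.7 against 35.6 ± 0.663 FPKM (mean ± SD, n = 4), a difference of -0.17 ± 0.09 (adjusted p = 0.254). Hnrnph3 averaged 19.5 ± 3.99 FPKM in control, 15.4 ± 2.23 in DSS and 18.2 ± 1.7 in FGF1 (mean ± SD, n = 4), with a DSS difference of -0.31 ± 0.14 (adjusted p = 0.179).

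Hnrnpd, or AUF1, which binds AU-rich elements and speeds the decay of messages, stood at 54, 49.9, 53 and 48.5 FPKM in control, 73.2, 63.9, 63 and 43.6 in DSS and 47.4, 70, 49.3 and 64.9 in FGF1. Hnrnpdl, its relative, stood at 63.8, 77.4, 82 and 77.8 FPKM in control, 92.5, 84.6, 82.5 and 80.3 in DSS and 79.2, 87.7, 78.3 and 76.7 in FGF1. Hnrnph1, a G-run binder like Hnrnpf, stood at 82.4, 64.6, 84.9 and 74.3 FPKM in control, 79.7, 86.6, 79.1 and 69.6 in DSS and 103, 74.4, 78 and 64.6 in FGF1. These 3 genes overlapped between all groups, and Hnrnpdl had a DSS difference of 0.18 ± 0.10 (adjusted p = 0.264), which became 0.32 with an adjusted p of 0.0406 under median-of-ratios scaling.

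Hnrnpk, which binds runs of C, stood at 87.7, 101, 134 and 94 FPKM in control, 124, 100.4, 107 and 84.7 in DSS and 99.2, 112, 130.2 and 101 in FGF1. Hnrnpm, which regulates exon choice in epithelial and mesenchymal cells, stood at 63.5, 56, 62.1 and 56.3 FPKM in control, 72.1, 33.7, 54.2 and 36.7 in DSS and 60.6, 64.1, 49.9 and 58.5 in FGF1. Both overlapped between all groups. The DSS difference of Hnrnpm was -0.33 ± 0.20 (adjusted p = 0.309), and without DSS 1, the DSS library with the most Hnrnpm, it was -0.54 with an adjusted p of 0.0382.

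In gene levels, groups did not overlap for 2 of 31 members between DSS and control (Srsf5 and Hnrnph2; 16.9% of all genes), 2 between FGF1 and DSS (Hnrnpu and Hnrnpab; 6.28%) and 3 between FGF1 and control (Hnrnpu, Srsf5 and Srsf10; 10.3%). Each of these counts was near or under its background.

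The next question was which transcripts the RNA of each gene was made of. Summed over the 33 genes, the share of FPKM in noncoding transcripts (decay targets, retained introns and processed transcripts) was 25.8, 27.8, 28.5 and 30.4% in control, 31.2, 33.1, 33.3 and 33.4% in DSS and 33.0, 33.9, 33.5 and 31.1% in FGF1. Every treated library lay above every control. The means were 28.1% ± 1.9 in control, 32.7% ± 1.03 in DSS and 32.9% ± 1.2 in FGF1 (mean ± SD, n = 4). Over all genes the noncoding share was 8.73 to 10.3% in control, 9.32 to 10.7% in DSS and 9.61 to 10.2% in FGF1, with overlap between all groups.

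Their noncoding transcripts summed to 659 ± 73.8 FPKM in control, 793 ± 51.6 in DSS and 805 ± 39.9 in FGF1, and their coding transcripts to 1683 ± 138, 1634 ± 188 and 1645 ± 30.7 FPKM (mean ± SD, n = 4). The mean noncoding FPKM of Srsf5 was 45.0 higher in DSS than in control, that of Hnrnpa1 30.9 higher and that of Hnrnpu 13.5 higher. Without these 3 genes the share was 25.3% ± 1.04 in control, 27.6% ± 1.09 in DSS and 27.8% ± 0.81 in FGF1, and the highest control, at 26.2%, lay just under the lowest DSS library, at 26.3%. Without Hnrnpu alone, control 4 at 30.3% and FGF1 4 at 30.2% overlapped. No test was made of this sum, and the 3 genes were chosen after their values were seen.

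Gene by gene, the ratio of noncoding to coding FPKM could be tested in 24 members and none was called in any comparison (limma; background 0% for DSS against control, 0% for FGF1 against DSS and 0.0375% for FGF1 against control). At an unadjusted p under 0.05 there were 0, 0 and 1. Between DSS and control the ratio was higher in 18 of 24 members with a median difference of 0.24 (log2), beside 0.04 over all genes tested. Between FGF1 and control it was higher in 21 of 24 with a median of 0.28, beside 0.04, and between FGF1 and DSS in 12 of 24 with a median of -0.01, beside -0.01. The share of all genes with a higher ratio is not given here. DSS and FGF1 were set against the same controls, and these counts were not tested. The smallest p for DSS against control belonged to Srsf1, Hnrnpa1, Srsf7, Tra2a and Hnrnpdl, with adjusted p-values of 0.631 to 0.721. For FGF1 against DSS it was Hnrnpk, Hnrnpu, Tra2b, Hnrnpd and Srsf7 (0.818 to 0.914). For FGF1 against control it was Hnrnpu (0.813), then Srsf6, Srsf3, Hnrnpd and Hnrnpa1 (each 0.967).

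Groups did not overlap in the noncoding share of 1 of 24 members in each comparison (Hnrnpa2b1, Srsf3 and Hnrnpu in turn), beside 4.1%, 3.32% and 2.89% of all genes.

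The share of each transcript in its gene was tested as the log2 ratio of its FPKM to that of the rest of the gene. Of 177 member transcripts tested, none was called in any comparison, beside backgrounds of 0%, 0% and 0.023%, and 10, 8 and 4 had an unadjusted p under 0.05 in limma. Groups did not overlap for 8 of 177 transcripts between DSS and control, 7 between FGF1 and DSS and 8 between FGF1 and control, beside 4.55%, 3.38% and 3.05% of all transcripts tested. Skipped exon and retained intron events gave no call among 179 tested either (backgrounds 0.023%, 0.0323% and 0.0461%), with 6, 3 and 1 at an unadjusted p under 0.05.

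Hnrnpu had the smallest p of the member ratios of noncoding to coding RNA between FGF1 and control. Its noncoding share was 32.9, 29.7, 35.3 and 35.1% in control, 34.1, 20.5, 61.2 and 63.8% in DSS and 62.9, 56.9, 58.7 and 57.1% in FGF1. FGF1 libraries and DSS 3 and DSS 4 lay between 56.9 and 63.8%, and all controls, DSS 1 and DSS 2 lay at or under 35.3%. The ratio of noncoding to coding differed by 1.46 ± 0.49 (adjusted p = 0.813) for FGF1 against control.

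Most of that noncoding RNA was Hnrnpu-209, a 351-base transcript of 3 exons annotated as a decay target, with its stop codon in exon 1. It stood at 9.51, 8.79, 12.2 and 10.1 FPKM in control, 9.51, 0.443, 38.2 and 38.4 in DSS and 40.6, 34, 38.4 and 41.6 in FGF1. The same 6 libraries were high and the same 6 low, and DSS 2 was lowest of all. Hnrnpu-201, the only coding transcript of the gene, stood at 27.6, 29.1, 31.6 and 25.8 FPKM in control, 36.1, 31, 26.9 and 23.9 in DSS and 26.6, 30.2, 29.7 and 36.2 in FGF1, with overlap of all groups. As a share of the gene, Hnrnpu-201 differed by -1.46 ± 0.50 (adjusted p = 0.848) and Hnrnpu-209 by 1.71 ± 0.92 (adjusted p = 0.94) for FGF1 against control. DSS 3 and DSS 4 were the libraries with the fewest transcripts above 0 (45795 and 47597), whereas the 4 FGF1 libraries had 50174 to 51834. The part of this count in the result was not tested.

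Hnrnpa2b1 had the smallest p of the member transcript shares between DSS and control, for Hnrnpa2b1-201, a coding form. Its share was 12.5, 12.3, 13.7 and 14.3% in control, 18.4, 17.4, 23.2 and 21.6% in DSS and 15.8, 15.2, 13.9 and 17.7% in FGF1. All DSS libraries but DSS 2 lay above every other library, and DSS 2, at 17.4%, lay just under FGF1 4. The difference was 0.72 ± 0.19 (adjusted p = 0.289). Hnrnpa2b1-204, the most abundant coding form, had its lowest mean share in DSS, with 31% ± 1.36 in control, 25% ± 2.08 in DSS and 30.1% ± 1.58 in FGF1 (mean ± SD, n = 4) and a difference of -0.43 ± 0.19 (adjusted p = 0.54).

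At the level of exons, the 120-base exon that adds glycine-rich codons was included at 52.6, 52.5, 50.3 and 49.2% in control, 44.1, 47, 42.8 and 43.1% in DSS and 50.9, 48.7, 51.4 and 49.7% in FGF1, as a share of the RNA that either includes or skips it. DSS libraries lay under all others, and control and FGF1 overlapped. The mean was 51.2% ± 1.68 in control, 44.2% ± 1.92 in DSS and 50.2% ± 1.24 in FGF1 (mean ± SD, n = 4). The difference in the log2 ratio of the including transcripts to the rest of the gene was -0.48 ± 0.19 (adjusted p = 0.487) for DSS against control. Hnrnpa2b1-204 includes this exon and Hnrnpa2b1-201 skips it, so the exon is no separate evidence from their shares.

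A second exon of Hnrnpa2b1, of 136 bases at chr6:51461920-51462055, is skipped by Hnrnpa2b1-201. Among the transcripts listed under this event, it was included in 33.4% ± 4.25 in control, 20.5% ± 2.43 in DSS and 26.6% ± 5.2 in FGF1 (mean ± SD, n = 4). Those that include it are Hnrnpa2b1-202 and the decay targets Hnrnpa2b1-207 and Hnrnpa2b1-209. With Hnrnpa2b1-201 they averaged 92.29 FPKM, beside 419.9 for the gene, and Hnrnpa2b1-204 is not among them. Skipping of this exon had the smallest p of all member events between DSS and control, 0.72 ± 0.20 (adjusted p = 0.328). It rests on Hnrnpa2b1-201 alone and repeats the share of that transcript. The 36-base exon of the B1 form was included in 8.95% ± 0.94 in control, 7.48% ± 1.05 in DSS and 7.99% ± 1.09 in FGF1. The noncoding share of the gene was 25.7, 28.6, 28.9 and 29% in control, 29.1, 32.4, 31.1 and 34.8% in DSS and 30.3, 30.5, 25.8 and 30% in FGF1, where every DSS library lay above every control and DSS and FGF1 overlapped.

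**Figure D3:**
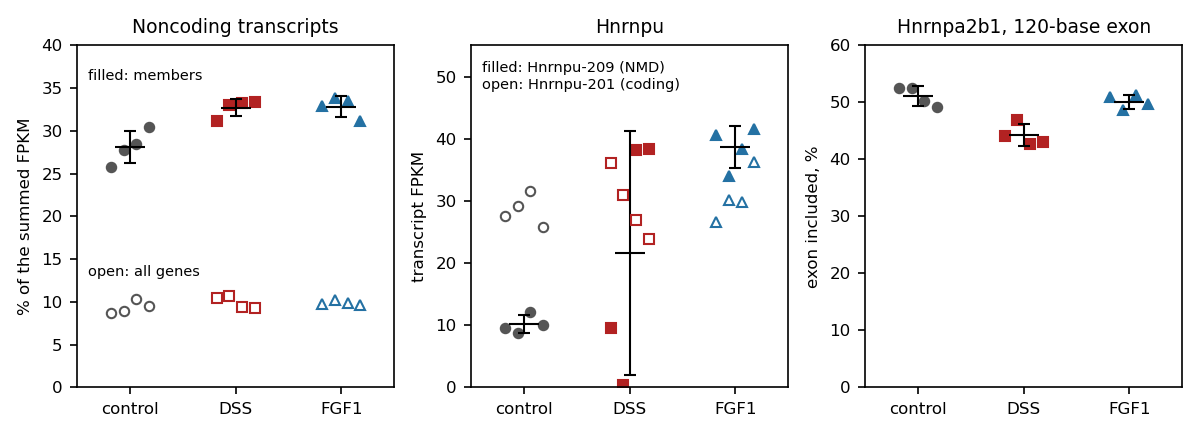
Values per library, with lines at the mean and bars of 1 SD for the filled symbols: the noncoding percent of summed FPKM (33 genes filled, all genes open), the FPKM of Hnrnpu-209 (filled) and Hnrnpu-201 (open), and the inclusion of the 120-base exon of Hnrnpa2b1 in percent. All 8 treated libraries lie above all controls among filled points of the first panel, DSS 3 and DSS 4 sit with FGF1 for Hnrnpu-209, and DSS lies under control and FGF1 in the last.

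Poison-exon inclusion was read as the FPKM of transcripts that include the exon, in percent of those that include or skip it. The differences given, here and for exons and introns below, were fitted on another quantity. It was the log2 ratio of the including or retaining transcripts to all other listed transcripts of the gene. No tested poison exon was called in any comparison, and the smallest adjusted p-values were 0.725 (Hnrnpl, DSS against control) and 0.77 (Tra2b, FGF1 against DSS). Group means ran from 0.62% for Srsf9 to 46.9% for Hnrnpll.

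The Srsf3 exon, through which Srsf3 protein limits its own message, was included in 44.1, 43.2, 9.4 and 45.5% in control, 42.1, 36.6, 37.3 and 35.1% in DSS and 44.7, 46.4, 45.3 and 46.4% in FGF1. A single library, control 3, was low, and without it the remaining libraries ran from 35.1 to 46.4%. FGF1 libraries lay above all DSS libraries. The difference between these groups was 0.39 ± 0.53 (adjusted p = 0.921). The exon of Srsf7, its close relative, was nearly always skipped, with inclusion at 1.47, 3.78, 3.09 and 1.73% in control, 4.62, 2.15, 4.35 and 2.81% in DSS and 2.47, 1.69, 2.61 and 2.07% in FGF1, and its differences were 0.27 ± 0.23 (adjusted p = 0.78) for DSS against control and -0.43 ± 0.23 (adjusted p = 0.795) for FGF1 against DSS.

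The Srsf6 exon split the treated libraries. Its inclusion was 5.96, 9.58, 8.06 and 6.86% in control, 24.9, 33.2, 5.42 and 5.96% in DSS and 14.5, 39.8, 44.4 and 5.57% in FGF1. All controls were under 10%, while FGF1 1 was at 14.5%, DSS 1, DSS 2, FGF1 2 and FGF1 3 were between 24.9 and 44.4%, and DSS 3, DSS 4 and FGF1 4 lay at control values. The difference was 1.43 ± 0.82 (adjusted p = 0.913) for FGF1 against control and 0.74 ± 0.82 (adjusted p = 0.834) for DSS against control.

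The Tra2a exon was included in 35.5, 21.7, 29 and 45.6% in control, 35.3, 49.2, 30.2 and 30.1% in DSS and 30.4, 35.8, 50.2 and 31.2% in FGF1, and that of Tra2b in 10.3, 3.77, 7.34 and 7.36% in control, 8.04, 8.97, 4.12 and 7.19% in DSS and 8.22, 7.48, 15.3 and 17.9% in FGF1. Tra2a thus carried its poison exon in 21.7% of this RNA or more in every library, and Tra2b in 17.9% or less. FGF1 3 and FGF1 4 had the highest Tra2b values, and all groups overlapped for both genes. The differences were 0.63 ± 0.31 (adjusted p = 0.77) for Tra2b in FGF1 against DSS and 0.24 ± 0.39 (adjusted p = 0.908) for Tra2a in DSS against control.

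Of the hnRNPs, Hnrnpl, which binds CA repeats, included its exon in 22.9, 28.3, 25.1 and 14.7% in control, 25.3, 20.4, 34.9 and 42.5% in DSS and 20.4, 25.8, 28.1 and 31.5% in FGF1. Its paralogue Hnrnpll, known for regulating Cd45 exons in lymphocytes, included its own in 51.5, 46.5, 39.8 and 49.8% in control, 47.3, 31.6, 42.6 and 44.6% in DSS and 28.5, 45.9, 50 and 43.6% in FGF1. DSS 3 and DSS 4 were the highest libraries for Hnrnpl, FGF1 1 was the lowest for Hnrnpll, and all groups overlapped for both. The difference of Hnrnpl was 0.51 ± 0.35 (adjusted p = 0.725) for DSS against control, and that of Hnrnpll was -0.24 ± 0.28 (adjusted p = 0.855). For Hnrnpl it was -0.03 without DSS 3 and DSS 4.

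Poison exons of Srsf4, Srsf9 and Srsf11 were included at low levels, with group means of 2.33 to 3.05% for Srsf4, 0.62 to 1.28% for Srsf9, and 1.23 to 2.88% and 1.44 to 1.49% for a pair of exons of Srsf11. A 107-base exon of Hnrnpd at chr5:99962098-99962204, which lies after the stop codon, was included in 31.9% ± 6.31 in control, 35.4% ± 7.52 in DSS and 38.7% ± 9.63 in FGF1 (mean ± SD, n = 4).

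**Figure D4:**
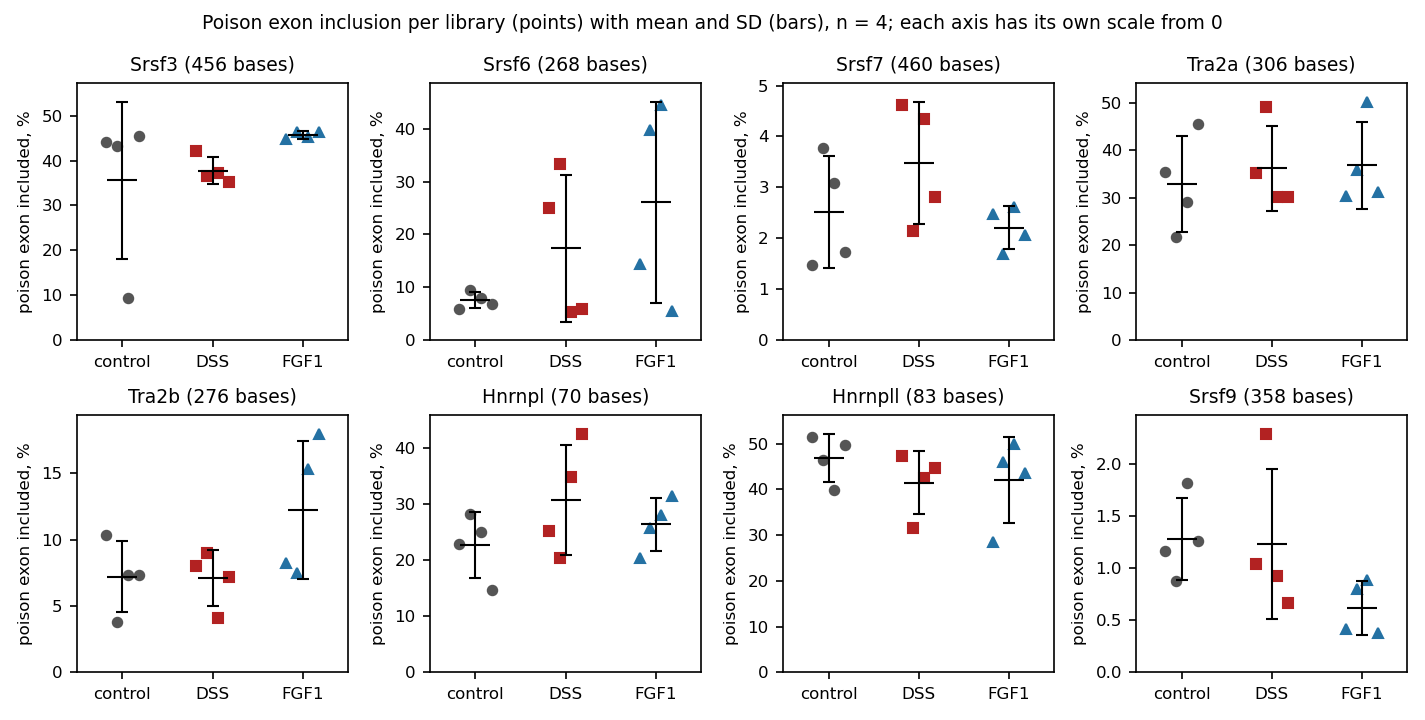
Inclusion of poison exons in percent of the RNA that includes or skips each, per library, in control, DSS and FGF1, with 1 panel and y axis per exon, 1 point per library, a line at each group mean and bars of 1 SD. Srsf3 has a single low control at 9.4%, Srsf6 is under 10% in all controls and between 5.42 and 44.4% in treated libraries, and Srsf7 stays under 5% in all 12.

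Retained introns were a large part of the noncoding RNA of Srsf5, Srsf6 and Tra2a. In Srsf5, Srsf5-209 and Srsf5-212 retain the intron at chr12:80947865-80949095. Its retention, as a share of the RNA that keeps or removes it, was 45.4, 25.3, 55.4 and 50.5% in control, 45.9, 50.3, 46.4 and 56.8% in DSS and 56.8, 49.1, 45.3 and 50% in FGF1. Control 2 was the lowest library and FGF1 1 the highest, with overlap of all groups. The difference was 0.26 ± 0.31 (adjusted p = 0.855) for DSS against control. The noncoding share of Srsf5 as a whole was 59, 42.9, 69.1 and 66.5% in control, 63.4, 60.8, 63.1 and 71.3% in DSS and 69.5, 63.2, 60.1 and 67.1% in FGF1.

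Srsf6-204 retains 3 introns, and retention of the stretch at chr2:162932142-162933426 was 34.6% ± 4.52 in control, 37.5% ± 16.1 in DSS and 37.7% ± 6.87 in FGF1 (mean ± SD, n = 4). The noncoding share of Srsf6 was 31.4, 39.1, 41.7 and 39.7% in control, 44, 50.1, 61.6 and 27.2% in DSS and 37.1, 55.1, 58.4 and 48% in FGF1, lowest in DSS 4 and highest in DSS 3. Tra2a-205 retains 1 intron, at chr6:49245610-49246849, and its retention was 30.3, 45.4, 60.8 and 43.7% in control, 51.5, 40.4, 58.3 and 56.2% in DSS and 59.8, 51.3, 40.1 and 36.7% in FGF1. That intron had a difference of 0.82 ± 0.55 (adjusted p = 0.711) for DSS against control, with overlap of all groups.

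Coding RNA of Tra2a was high in only 3 libraries. It stood at 21.1, 27, 5.76 and 6.68 FPKM in control, 5.6, 5.29, 5.34 and 4.56 in DSS and 5.16, 6.97, 6.23 and 21.5 in FGF1. Control 1, control 2 and FGF1 4 had 21.1 FPKM or more, and the other 9 libraries had 6.97 FPKM or less. The noncoding share was 52.5, 42, 81.8 and 83.7% in control, 78.3, 84.6, 80.7 and 78.7% in DSS and 83.4, 78.2, 85.8 and 51.1% in FGF1. In the high libraries the coding RNA was Tra2a-204, whose share was 43.9, 55.3 and 45.9% there and 17.3% or less elsewhere.

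Noncoding shares of the other SR genes varied in their own ways. For Srsf1 the share was 24.6, 40.9, 29.2 and 25.9% in control, 34.5, 47, 34.3 and 37.7% in DSS and 38.6, 33.4, 33.5 and 38.4% in FGF1, and the difference of the noncoding to coding ratio was 0.49 ± 0.27 (adjusted p = 0.631) for DSS against control. Its decay target Srsf1-204 had a higher share in every FGF1 library than in any control (13, 12.3, 9.05 and 11.8% in control, 15.7, 20.2, 12.4 and 16.7% in DSS and 18.2, 13.2, 15.8 and 14.8% in FGF1). For Srsf2 the noncoding share was 21.1, 10.9, 10.9 and 9.91% in control, 7.5, 10.2, 12.1 and 36.3% in DSS and 12.6, 10.2, 9.61 and 30.2% in FGF1. Control 1, DSS 4 and FGF1 4 were high, and they were the only libraries with Srsf2-203, which retains 3 introns, at 20.1, 24.8 and 29.4% of the gene.

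Srsf3 RNA was mostly noncoding, at 58.8, 62.5, 47.7 and 63.7% in control, 60.7, 62.1, 59 and 59.4% in DSS and 64.6, 67.5, 62.6 and 64.6% in FGF1, with control 3 alone under 50%. Srsf7 RNA was mostly coding, and its noncoding share was 6.26, 10.4, 12.7 and 9.74% in control, 13.3, 11.3, 12.7 and 11.4% in DSS and 9.13, 9.24, 10.9 and 12.1% in FGF1. For Srsf4 the share was 14.9, 17.7, 14.6 and 12.6% in control, 23.9, 18.4, 17 and 12.1% in DSS and 13.4, 18.1, 21.9 and 20.5% in FGF1. Control 1 had the lowest Srsf7 value, and DSS 1 and FGF1 3 the highest Srsf4 values, with overlap of all groups.

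For Srsf10 the noncoding share was 15.8, 13.5, 9.79 and 13.9% in control, 21.3, 14.9, 11.1 and 17.7% in DSS and 10.1, 18.1, 14.1 and 16.3% in FGF1, and for Srsf11 it was 35.5, 33.9, 37.7 and 35.1% in control, 38.4, 42.9, 26.8 and 28.9% in DSS and 29.7, 41.9, 36.8 and 37.8% in FGF1. Tra2b had 19.2, 12.1, 16 and 16.7% in control, 16.8, 20.4, 11.5 and 14.8% in DSS and 16.5, 16.3, 21.7 and 26.9% in FGF1. In all 3 genes the groups overlapped, and FGF1 4 was the highest library for Tra2b.

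Between FGF1 and DSS, the smallest p of the member transcript shares and of the member events belonged to Hnrnpk. Its retained-intron transcript Hnrnpk-211 held 8.54, 8.35, 16.4 and 11.9% in control, 4.76, 5.9, 4.41 and 5.55% in DSS and 17, 14, 30.6 and 10.6% in FGF1 of the gene. All DSS libraries lay under all others, and FGF1 3 and then FGF1 1 and control 3 were highest. The difference was 1.75 ± 0.36 (adjusted p = 0.333) for FGF1 against DSS and -1.06 ± 0.36 (adjusted p = 0.392) for DSS against control. Control 3 and FGF1 3, high here, were also the libraries with the most smooth muscle RNA, and with both left out the differences were 1.40 (adjusted p = 0.455) and -0.86 (adjusted p = 0.475). With the muscle score in the model they were 1.24 (adjusted p = 0.677) and -0.26 (adjusted p = 0.942).

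Hnrnpk-211 carries the 72-base exon, so the exon is no separate evidence. It was included in 33.8, 34.9, 44.3 and 34.2% in control, 33.1, 29.7, 25.3 and 28% in DSS and 43.2, 40.7, 59.1 and 38.5% in FGF1. All FGF1 libraries lay above all DSS libraries, and FGF1 3 was highest. The difference was 0.88 ± 0.23 (adjusted p = 0.479) for FGF1 against DSS. Retention of another intron, at chr13:58393868-58394076, was 19.6% ± 3.8 in control, 23.8% ± 4.21 in DSS and 24.3% ± 4.72 in FGF1 (mean ± SD, n = 4). The noncoding share of the gene was 36.5, 38.1, 55.4 and 43.6% in control, 35.9, 44.4, 34.7 and 39.5% in DSS and 48.8, 44.2, 63.1 and 39.9% in FGF1.

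Hnrnpk-220 had the smallest p of all member transcripts between FGF1 and control, with a mean share at 3.43% ± 1.68 in control, 1.44% ± 0.69 in DSS and 0.71% ± 0.18 in FGF1 (mean ± SD, n = 4) and a difference of -1.38 ± 0.35 (adjusted p = 0.674). Hnrnpm-211, a coding form, had a larger share in every DSS and every FGF1 library than in any control, at 7.03, 8.48, 8.2 and 8.16% in control, 9.54, 16.3, 8.5 and 15.3% in DSS and 9.65, 10, 10.5 and 9.38% in FGF1. Its difference was 0.61 ± 0.24 (adjusted p = 0.479) for DSS against control. The noncoding share of Hnrnpm was low throughout, at 15.6, 3.66, 9.88 and 7.93% in control, 8.62, 14.4, 7.16 and 8.44% in DSS and 7.28, 13, 6.5 and 10.2% in FGF1.

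Hnrnpd RNA was noncoding for about as much as it was coding, at 53.6, 52.1, 51.2 and 47.5% in control, 49.8, 51.8, 58.8 and 49.1% in DSS and 52.2, 62.8, 54.4 and 61.4% in FGF1. Hnrnpd-204, a decay target, lay lower in every DSS library than in any FGF1 library, at 11.1, 20.8, 14.9 and 11.8% in control, 11.1, 8.0, 11.7 and 12.8% in DSS and 13.6, 19.6, 17.5 and 18.6% in FGF1. Its difference was 0.72 ± 0.26 (adjusted p = 0.687) for FGF1 against DSS. Hnrnph1 RNA was nearly all noncoding as listed, at 94.3, 86.7, 96.4 and 95.5% in control, 94.1, 97.9, 84 and 94.3% in DSS and 94, 94.3, 90 and 79.2% in FGF1, led by the processed transcripts Hnrnph1-218, Hnrnph1-217 and Hnrnph1-204.

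Hnrnpdl RNA was noncoding at 30.3, 51.6, 28.5 and 51.7% in control, 48.4, 46.1, 53.5 and 49.5% in DSS and 48.7, 51, 33.8 and 51.3% in FGF1. Control 1, control 3 and FGF1 3 were low, and they had the least Hnrnpdl-203, a processed transcript, at 1.58, 2.67 and 1.78% of the gene. The coding transcript Hnrnpc-207 held 13.6% ± 1.82 in control, 18.7% ± 3.02 in DSS and 14.2% ± 1.48 in FGF1 (mean ± SD, n = 4) and a difference of 0.52 ± 0.20 (adjusted p = 0.459) for DSS against control, and 4 Hnrnpc skipping events rest on that transcript alone.

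Several other members were among the smallest p of a comparison without being called. In FGF1 against DSS these were the shares of Hnrnpa1-205 at -1.18 ± 0.43 (adjusted p = 0.687), Hnrnpk-223 at 0.48 ± 0.17 (adjusted p = 0.688) and Hnrnpu-203 at -0.76 ± 0.29 (adjusted p = 0.699). In FGF1 against control they were those of Hnrnpu-203 at -0.80 ± 0.29 (adjusted p = 0.869) and Hnrnpk-232 at -0.80 ± 0.32 (adjusted p = 0.921), and in DSS against control Hnrnpk-220 at -0.82 ± 0.35 (adjusted p = 0.504). Of the skipping events of FGF1 against control, those at chr3:158024698-158024761 in Srsf11, chr1:178323966-178324016 in Hnrnpu and chr11:88049412-88049598 in Srsf1 had adjusted p-values of 0.89, 0.906 and 0.908.

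In a few genes the RNA was assigned almost wholly to 1 transcript in some libraries and to another in others, in patterns that ran across the treatment groups. Of 65 transcripts with 25% or more of their gene in some library, 5 transcripts of 2 genes, Hnrnpa3 and Hnrnpf, were under 1% in a library and at 50% or more in another. Hnrnpa3, an A/B-type protein, was 94.6% or more Hnrnpa3-203 in control 1, control 2, DSS 2, DSS 3 and FGF1 1. It was 100% Hnrnpa3-204 in control 3, control 4, FGF1 2, FGF1 3 and FGF1 4, and 84.8% or more Hnrnpa3-202 in DSS 1 and DSS 4. The level of the gene was 21.8, 28.6, 14.1 and 12.2 FPKM in control, 14.7, 21, 27.6 and 17.2 in DSS and 27.3, 11.6, 13.6 and 9.04 in FGF1. All 3 transcripts are coding, and 3 further coding transcripts of the gene were not analysed here.

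Hnrnpf alternated among 3 coding transcripts. Hnrnpf-201 made up 78.5, 15.7, 82.3 and 0.80% in control, 1.7, 0.91, 3.03 and 87% in DSS and 1.07, 1.8, 7.48 and 78.5% in FGF1. Hnrnpf-209 made up 0.89, 1.69, 0.67 and 79.3% in control, 73.6, 78.5, 2.34 and 1.01% in DSS and 86, 79.5, 3.11 and 0.90% in FGF1. Hnrnpf-208 held 66.6, 67.6 and 75.2% in control 2, DSS 3 and FGF1 3 and at most 14.9% elsewhere. Each form led in libraries of all 3 groups, and the 3 libraries led by Hnrnpf-208 were those with the lowest Hnrnpf levels.

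In Hnrnpr, which like Hnrnpq binds A- and U-rich RNA, Hnrnpr-202 held 79, 22.8, 7.35 and 6.23% in control, 79, 6.54, 6.56 and 6.83% in DSS and 82.6, 78.4, 6.17 and 82.1% in FGF1. Hnrnpr-204, another coding form, was high where Hnrnpr-202 was low. Hnrnpa1-202, the main coding form, held 80.7, 34.8, 78.2 and 35.9% in control, 50.6, 7.39, 42.7 and 28.7% in DSS and 17.6, 25.6, 15.5 and 77.3% in FGF1, and the decay targets Hnrnpa1-203 and Hnrnpa1-204 held nearly all the rest. The highest shares of Hnrnpa1-202, in control 1, control 3 and FGF1 4, came from different groups, and the ratio of noncoding to coding Hnrnpa1 RNA differed by 1.74 ± 1.05 (adjusted p = 0.672) for DSS against control.

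**Figure D5:**
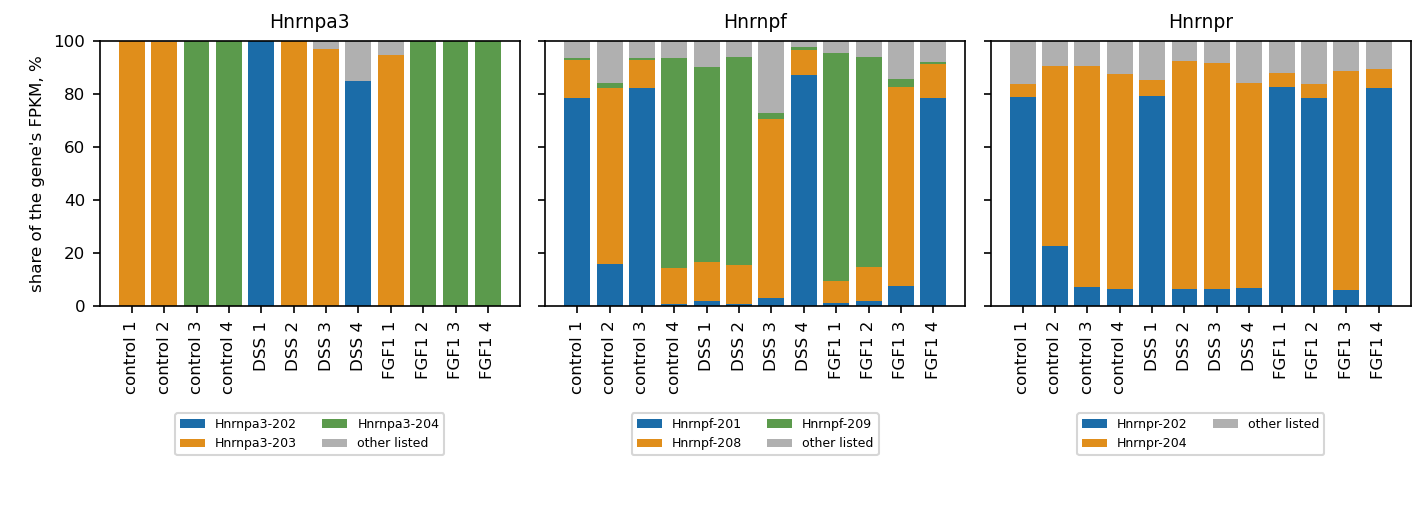
Percent of gene FPKM per library (x axis, 4 libraries per group) held by each transcript of Hnrnpa3, Hnrnpf and Hnrnpr, as stacked bars that start at 0. The leading transcript changes from library to library within each group, from 100% Hnrnpa3-204 in control 3 to none of it in control 1.

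Other genes of splicing control were read as lists. Of 12 kinases and phosphatases that act on SR proteins, 1 fell in DSS against control, with none higher, beside 10.1% of all genes lower and 2.23% higher (list median -0.05, beside -0.07 over all genes). It was Srpk2, an SR protein kinase, at 3.86, 4.61, 6.41 and 5.07 FPKM in control, 4.02, 2.57, 3.04 and 2.33 in DSS and 4.03, 3.33, 4.62 and 3.16 in FGF1, and the difference was -0.59 ± 0.17 (adjusted p = 0.0433). Clk1 and Clk4, kinases that release SR proteins from nuclear speckles, differed by 0.21 ± 0.11 (adjusted p = 0.227) and 0.34 ± 0.12 (adjusted p = 0.0878), and Srpk1 by -0.07 ± 0.10 (adjusted p = 0.717). In FGF1 against DSS and FGF1 against control no gene of any list was called.

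Of 22 RNA-binding proteins related to hnRNPs, 1 was higher and 1 lower in DSS (median -0.01), beside 12.3% of all genes called in either direction. Rbm3, a protein made more in the cold and under stress, rose with a difference of 1.25 ± 0.34 (adjusted p = 0.0324) and stood at 65.3, 59.6, 69.5 and 64 FPKM in control, 262, 90.9, 256 and 95.1 in DSS and 76.4, 79.5, 63.9 and 120.3 in FGF1. Every DSS library lay above every control for Rbm3. From start events alone the Rbm3 difference was 0.11 with an adjusted p of 0.941 (limma). The part of Rbm3 FPKM that these events held is not given here, so 0.11 may not compare the whole gene. Pcbp3, a C-run binder, fell by 1.00, from 4.74 to 1.88 FPKM (SE 0.28, adjusted p = 0.0374). Ptbp1, the polypyrimidine tract binding repressor, differed by 0.20 ± 0.30 (adjusted p = 0.729), and Cirbp, the cold-inducible relative of Rbm3, by 0.49 ± 0.27 (adjusted p = 0.264).

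Of 20 tissue splicing regulators, 5 fell and none rose in DSS (median -0.41, beside -0.07 over all genes), where 10.1% of all genes were lower. Qk, the quaking protein of glia and muscle, had 3.12, 3.29, 5.3 and 4.39 FPKM in control, 1.43, 0.85, 0.49 and 0.61 in DSS and 1.39, 1.64, 2.21 and 1.15 in FGF1, with every DSS library under every control, and a difference of -1.45 ± 0.20 (adjusted p = 0.00317). Celf2 (-0.76 ± 0.16, adjusted p = 0.0115), Rbpms (-1.49 ± 0.35, 0.0197) and Rbm38 (-0.82 ± 0.23, 0.0382) also fell, as did Celf4. Rbpms is known from smooth muscle. With the muscle score in the model, the differences were -0.99 for Qk (adjusted p = 0.0624), -0.77 for Celf2 (0.129), -0.43 for Rbpms (0.236) and -0.71 for Rbm38 (0.338). In the same fit they were 1.18 for Rbm3 (adjusted p = 0.277), -0.37 for Pcbp3 (0.584) and -0.22 for Srpk2 (0.607), so that none of these 7 was called. Qk was called in 19 of 20 alternatives, Celf2 in 18 of 20 and Rbpms in 15 of 21, but Pcbp3 in 10 of 21, Rbm3 in 8, Rbm38 in 7 and Srpk2 in 5. Esrp1, the epithelial splicing regulator, differed by -0.15 ± 0.28 (adjusted p = 0.775).

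None of 23 SR-related proteins, 52 core spliceosome genes and 15 genes of nonsense-mediated decay and the exon junction was called in any comparison by limma. Their medians between DSS and control were 0.06, -0.04 and 0.02, and at an unadjusted p under 0.05 there were 1, 2 and 2. Upf1, the helicase at the centre of nonsense-mediated decay, differed by -0.08 ± 0.16 (adjusted p = 0.784) for DSS against control.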

How the data were processed

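Colon RNA of 12 samples was sequenced; per the labels' protocols, libraries were made from polyadenylated RNA. The submitters' processing notes name cutadapt 1.9, HISAT2 2.0.4, StringTie 1.3.4d, edgeR and the GRCm38 build. The deposited table used here holds FPKM per transcript and transcript event, from the authors; counts were not used here, so the depth behind each value is unknown. A transcript's FPKM was its highest value over its event entries, because 266896 of these entries were listed at 0 where the same transcript had a value on another. Gene FPKM was the sum over transcripts, and biotypes and exons came from GENCODE vM21, whose use by the authors is not given in the sources used here.

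Differences were fitted with limma 3.58.1 (R 4.3.3, trend) over all 12 libraries, Benjamini-Hochberg adjusted over all features and called at an adjusted p under 0.05. Genes were fitted on log2(FPKM + 1) and needed 1 FPKM in 4 libraries. Shares and events were fitted as the log2 ratio of the transcript, or of the transcripts listed under the event, to all other listed transcripts of the gene. Noncoding to coding ratios were fitted as the log2 ratio of these 2 kinds of RNA. All needed 0.5 FPKM on both sides in 4 libraries. The scripts were tested on simulated data.

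The genes, lists and tests were chosen with earlier results of these data known. Named were called genes (up to 12 a comparison), the 6 most abundant, SR, Tra2 and hnRNP genes with known noncoding forms and, where fewer than 5 were called, the 5 smallest p; of other lists, up to 4 called genes and 8 chosen regulators. Alternatives were another pseudocount, filter, scaling, gene sum, scale of shares and definition of noncoding, a replicate block, only 2 groups, a smooth muscle covariate, and libraries left out; those of the other lists' genes were added after seeing the data.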

Additional observations from a re-analysis of the deposited data

Results flagged for a closer look

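In 126 groups of 4 libraries (each gene level, and each poison exon named here, in each treatment group), the highest or lowest library was compared with the other 3 by Dixon's test, and 7 stood apart; chance gives about 1 in 20. In 6 of the 7 the library was control 3. It was the highest control for Hnrnpa2b1, at 479.43 FPKM against 401.68 to 414.26 in the others, and for Hnrnpl, at 119.37 against 98.86 to 102.37. The same held for Hnrnph3 (25.46 against 17.09 to 18.48), Tra2b (35.33 against 30.72 to 31.47) and Srsf10 (23.11 against 19.46 to 19.93). For the Srsf3 poison exon it was the lowest, at 9.4% inclusion against 43.19 to 45.51%. Control 3 also had the highest summed smooth muscle markers, 8173.1 FPKM, whose part in these values was not tested. FGF1 4 was the highest FGF1 library for Hnrnpu, at 84.43 FPKM against 69.95 to 71.94.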

How the results depend on the processing

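The call of Srsf5 between DSS and control held in 19 of 21 alternatives. The number of member genes called there was 2 with median-of-ratios scaling and without control 3 and FGF1 3, 0 with the smooth muscle covariate and without DSS 3 and DSS 4, and 1 to 3 with single libraries left out. Between FGF1 and control it was 1 with only 2 groups fitted and without DSS 3 and DSS 4, and 0 to 1 with single libraries left out; the gene was Hnrnpu each time. No member share, event or ratio was called under any alternative. Values moved by over 1.5 times under some alternative in 10 of 15 member gene differences followed, 5 of 15 shares, 11 of 15 ratios and 28 of 40 events, with the arcsine scale left out. Over all genes, 1549 were called between DSS and control, with 727 from start events, 34 with the muscle covariate, 185 without DSS 3 and DSS 4, 915 without control 3 and FGF1 3 and 697 to 1982 with single libraries left out (697 without DSS 3, 724 without control 4, 773 without control 3, 827 without DSS 4). The 7 calls for FGF1 against DSS ranged from 0 to 43, and the 10 for FGF1 against control from 0 to 83.

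With the replicate number as a block, 1 member gene was called between DSS and control, and 1028 genes in all against 1549. Deviations of same-numbered libraries correlated at -0.217 to 0.399 (median -0.074), and of others at -0.364 to 0.257 (median 0.021). The highest, 0.399, was that of control 3 and FGF1 3, the libraries with the most smooth muscle RNA. Such correlations cannot settle if the numbers pair the samples.

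The values that turned their sign, none of them past the threshold, follow on the log2 scale. With start events alone, Tra2a was 0.012 in DSS against control and Srsf1 0.099 in FGF1 against control. Those events held 17.0 to 52.9% of Tra2a FPKM and 24.6 to 47.0% of Srsf1 FPKM over the libraries. With decay targets alone, the Hnrnpk ratio was -0.05 in FGF1 against DSS. With the muscle covariate, poison exons in DSS against control were -0.074 for Hnrnpl and -0.273 for Srsf3. In FGF1 against DSS they were 0.154 for Hnrnpl, 0.057 for both Srsf11 exons, -0.326 for Srsf6 and -0.394 for Tra2a. Without DSS 3 and DSS 4, Hnrnpl was -0.033 and Tra2b 0.179 in DSS against control, and Hnrnpl 0.324, Srsf6 -0.587 and Tra2a -0.319 in FGF1 against DSS. Without control 3 and FGF1 3, Srsf3 was -0.447 in DSS against control, Hnrnpll -0.098 and Tra2a -0.229 in FGF1 against DSS, and Srsf3 -0.087 and Tra2a -0.057 in FGF1 against control.

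With single libraries left out, exons in DSS against control ran from -0.188 to 0.024 for Srsf11, -0.447 to 0.497 for Srsf3, -0.011 to 0.492 for Tra2a and -0.201 to 0.141 for Tra2b. In FGF1 against DSS they ran from -0.471 to 0.022 for Hnrnpl, -0.118 to 0.253 for Hnrnpll, -0.294 to 0.064 for Srsf11 and -0.229 to 0.264 for Tra2a. In FGF1 against control they ran from -0.334 to 0.017 for Hnrnpll, -0.356 to 0.002 for Srsf11 and -0.057 to 0.887 for Srsf3. For all of these the cause was not tested.

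FPKM keep no counts, so what depth limits is unknown here, and transcript shares are the submitters' assignments of fragments to annotated transcripts.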
